A study of Saccharomyces cerevisiae with 12 samples.

Results

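The 56 genes described here carry out meiosis and sporulation in Saccharomyces cerevisiae, from the regulators that open the programme to the enzymes that build the spore wall. They were chosen by gene symbol, and each is read by the probe set annotated to that symbol, with the highest mean over the 12 arrays where a gene has several. All 56 were found among the 5449 yeast genes tested, each with 1 probe set of its own. By the time at which sporulating cells are known to express them, 9 were grouped as regulators, 21 as early, 16 as middle and 8 as late genes, and 2 were kept apart because dividing cells use them too.

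Sporulation is the starvation response of diploid budding yeast, entered when nitrogen and a fermentable carbon source run short and a respirable one is present. The regulator Ime1 opens it and turns on the early genes, which pair and recombine chromosomes. Ndt80 then turns on the middle genes for the meiotic divisions and the membranes that enclose the spores, and late genes complete a wall with outer layers of chitosan and dityrosine.

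The study followed the wine strain EC1118 through the bottle fermentation that makes sparkling wine. Cells grown in YPD and then adapted to ethanol in a medium containing base wine were added with 20 g/L sucrose to base wine, sealed in 350 mL bottles and kept unshaken at 16 °C. Samples were taken at day 7 (ethanol up by 0.26%), at day 15 (0.89%) and at day 19 (1.27%). The reference was the same strain growing exponentially in YPD at 28 °C, so the bottle samples differ from it in temperature, medium, ethanol, growth and age of the culture together, and these cannot be told apart. Each of the 4 groups has 3 arrays, which the labels call biological replicates. For the reference nothing says that they came from separate cultures, so p-values may measure technical spread there. All groups carry the unmodified strain, whose ploidy and mating type the labels do not give. No spore count is part of the data, and a larger share of cells that express a gene cannot be told apart from more RNA per cell.

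Values are log2 intensities, and differences are log2 differences, so that 1 is 2-fold. A value was taken as above background when it exceeded the 0.95 quantile of the 1746 Schizosaccharomyces pombe probe sets on the same array. The median of all yeast genes was 10.11 on the reference arrays and between 10.07 and 10.13 on the bottle arrays. Their lower decile was 7.40 ± 0.10 (SD, n = 3) in the reference and 7.90, 7.92 and 7.97 at day 7, day 15 and day 19, so dim yeast genes as a whole read higher in the bottles. The 17 ribosomal RNA probe sets averaged 6.40 ± 1.34 in the reference and 12.2 to 12.4 in the bottle groups. The part of these shifts in the results below was not tested, except by rescaling the arrays. Day 7 replicate 1 and day 19 replicate 1 stood apart from the other arrays of their days, and results that rest on them are given without them. Their lower deciles were 7.72 and 7.68, the lowest of their days. Day 15 replicate 1 was not low in that decile (7.96 against 7.86 and 7.94). For the genes described here it was low, with a median of 7.44 against 8.33 and 8.13.

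From 26 to 37 of the 56 genes read higher in the bottles than in growing cells, depending on the day, and the rest did not pass the test or, at day 15, were lower. Against the reference, limma called 26 of the 56 genes higher and 0 lower at day 7 (adjusted p under 0.05), where it called 19.7% of all genes higher and 17.1% lower. At day 15 it called 31 higher and 2 lower, beside 21.4% and 23.5% of all genes. At day 19 it called 37 higher and 0 lower, beside 22.7% and 20.8%. The median difference of the 56 was 0.98, 1.33 and 1.27 at the 3 times, against -0.03, -0.08 and -0.03 for all genes. The 56 are mostly dim in growing cells. Their median averaged 5.89 on the reference arrays, where the lower decile of all genes was 7.40, and dim genes as a whole read higher in the bottles. The part of that shift in these counts and medians was not tested, except by rescaling the arrays. The comparisons share the reference arrays, so they do not repeat each other independently. The number of the 56 above background was 39 to 43 per reference array and 50 to 53, 51 to 54 and 52 to 55 per array at day 7, day 15 and day 19.

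All 3 bottle arrays lay above all 3 reference arrays for 34 of the 56 genes at day 7 (30.8% of all genes), for 40 at day 15 (33%) and for 40 at day 19 (28.9%). All 3 lay below for 0 at day 7 (33% of all genes), for 3 at day 15 (37.8%) and for 1 at day 19 (30.6%). At day 15 the 3 lower genes were SUM1, SPO22 and SPO12, and at day 19 the lower gene was SUM1.

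**Figure D1:**
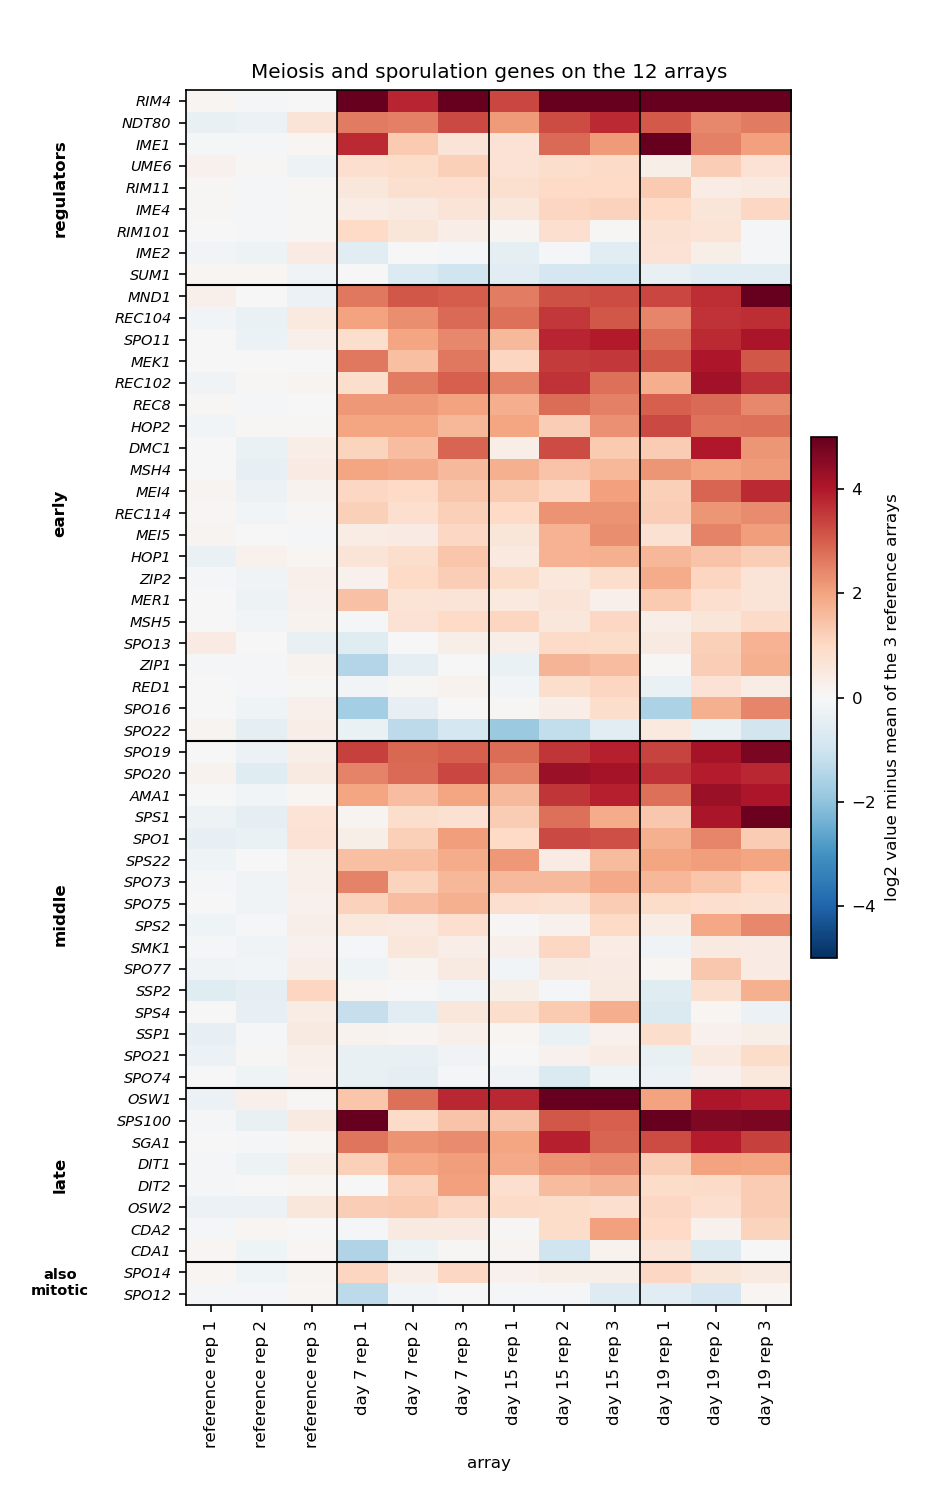
Difference of each of the 56 genes from the mean of the 3 reference arrays (colour, log2 scale, with differences beyond 5 drawn as 5) on each of the 12 arrays (columns), with the genes (rows) split by class and sorted within a class by their mean in the bottles. Red prevails in the 9 bottle columns, and 26, 31 and 37 genes were called higher at day 7, day 15 and day 19.

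Among the regulators RIM4 differed most. It encodes an RNA-binding protein that holds back the translation of meiotic messengers until the divisions. On the reference arrays RIM4 read 5.61, 5.41 and 5.47, against 11.14, 9.32 and 10.46 at day 7, 8.83, 11.69 and 11.05 at day 15, and 10.46, 10.78 and 10.82 at day 19. All 9 bottle arrays lay more than 3 log2 units above the reference. The differences were 4.81, 5.02 and 5.19 ± 0.625 (standard error from limma, n = 3 arrays a group), with adjusted p of 0.000247, 0.000169 and 0.000141.

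IME1, the gene of the master activator, read 5.68, 5.71 and 5.87 on the reference arrays. It read 9.50, 7.05 and 6.40 at day 7, 6.47, 8.58 and 7.87 at day 15, and 11.80, 8.28 and 7.81 at day 19. Every bottle array was above every reference array, but the bottle replicates were widely spread. The difference passed the test at day 19 (3.54 ± 1.01, adjusted p = 0.0162) and did not at day 7 (1.89, adjusted p = 0.162) or day 15 (1.88, adjusted p = 0.150). Without day 19 replicate 1, the array with the highest value, the day 19 difference of IME1 was 2.29 (adjusted p = 0.0379). Without day 7 replicate 1 its day 7 difference was 0.97 (adjusted p = 0.480).

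IME2 encodes the kinase that acts next to Ime1. Its arrays read 8.05, 7.94 and 8.60 in the reference, 7.63, 8.19 and 8.09 at day 7, 7.76, 8.11 and 7.63 at day 15, and 8.92, 8.48 and 8.11 at day 19. The groups overlapped at every time, and no difference passed the test (-0.23, -0.36 and 0.31 ± 0.274, adjusted p 0.297 to 0.524).

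NDT80, the activator of the middle genes, read 5.55, 5.62 and 6.57 in the reference. It read 8.51, 8.43 and 9.22 at day 7, 8.03, 9.18 and 9.66 at day 15, and 8.96, 8.32 and 8.51 at day 19. NDT80 was about as high at day 7 as later, and all bottle arrays were above all reference arrays. The differences were 2.81, 3.05 and 2.69 ± 0.421 (adjusted p = 0.000604, 0.00034 and 0.00067).

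SUM1 encodes the repressor that binds middle gene promoters in growing cells, where it competes with Ndt80. It read 11.22, 11.22 and 10.95 in the reference, 11.14, 10.43 and 10.14 at day 7, 10.61, 10.30 and 10.26 at day 15, and 10.77, 10.59 and 10.58 at day 19. The day 15 and day 19 arrays of SUM1 all lay below the reference, and only the day 15 difference passed the test (-0.74 ± 0.249, adjusted p = 0.0315). That call was lost without reference replicate 1 or 2 or without day 15 replicate 2 or 3 (adjusted p 0.0919 to 0.101). At day 7 the difference of SUM1 was -0.56 (adjusted p = 0.0969) and at day 19 it was -0.48 (adjusted p = 0.139).

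UME6 encodes the DNA-binding partner of Ime1, which represses early genes during growth. It read 9.91, 9.77 and 9.47 in the reference, 10.54, 10.63 and 10.91 at day 7, 10.43, 10.61 and 10.67 at day 15, and 10.00, 10.95 and 10.45 at day 19. Its differences were 0.98, 0.86 and 0.75 ± 0.247 (adjusted p = 0.0105, 0.0158 and 0.0297), with no overlap of arrays. The day 15 call of UME6 was lost without reference replicate 3 or day 15 replicate 3, and the day 19 call without reference replicate 2 or 3 or day 19 replicate 2 or 3.

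RIM11, the gene of a kinase that brings Ime1 and Ume6 together, read 10.77, 10.63 and 10.77 in the reference, 11.30, 11.53 and 11.58 at day 7, 11.53, 11.72 and 11.71 at day 15, and 12.05, 11.08 and 11.16 at day 19. All bottle arrays were higher, by 0.74, 0.93 and 0.71 ± 0.248 (adjusted p = 0.0357, 0.0108 and 0.0388). The day 7 call of RIM11 was lost without any 1 reference array, day 7 replicate 2 or 3, or day 15 replicate 3. The day 19 call was lost without any 1 reference array, day 7 replicate 2, day 15 replicate 3 or day 19 replicate 1, without which the difference was 0.39 (adjusted p = 0.0915). Of the 2 regulators not yet described, IME4, an RNA methyltransferase, was called higher at day 15 and day 19, and RIM101, the alkaline response factor, at no time.

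Of the 21 early genes 11 were called higher at day 7, 13 at day 15 and 16 at day 19, and SPO22 alone was called lower, at day 15. Their median difference was 1.07, 1.56 and 1.92, and the differences ran from -1.21 to 4.08. The early genes with the largest changes work on recombination: SPO11 makes the double-strand breaks, REC102 and REC104 encode partners of Spo11, MEK1 encodes the kinase that steers repair to the homologous chromosome, and MND1 serves strand exchange together with HOP2.

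MND1 read 4.13, 3.93 and 3.62 in the reference, where it was above background on 0 of 3 arrays. It read 6.55, 7.01 and 6.91 at day 7, 6.45, 7.07 and 7.17 at day 15, and 7.23, 7.59 and 9.12 at day 19. The measured differences were 2.93, 3.00 and 4.08 ± 0.416 (adjusted p = 0.000433, 0.00034 and 5.1e-05). Because the reference value lies in the background, the level of MND1 was at least 4.10-fold, 4.32-fold and 9.13-fold higher, counted from the background.

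SPO11 read 4.61, 4.29 and 4.82 in the reference, above background on 1 of 3 arrays. It read 5.46, 6.55 and 6.97 at day 7, 6.21, 8.40 and 8.54 at day 15, and 7.38, 8.30 and 8.68 at day 19. All day 19 arrays of SPO11 were above all day 7 arrays. The differences from the reference were 1.75, 3.14 and 3.54 ± 0.595 (adjusted p = 0.0385, 0.00185 and 0.00103). The day 7 call was lost without any 1 reference array or without day 7 replicate 2 or 3 (adjusted p 0.0704 to 0.127).

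MEK1 was above background on 0 of the 3 reference arrays, at 3.97, 4.03 and 4.00. It read 6.64, 5.52 and 6.62 at day 7, 5.06, 7.49 and 7.53 at day 15, and 7.09, 8.02 and 7.12 at day 19. It was at least 2.78-fold, 3.75-fold and 6.16-fold higher, with adjusted p of 0.0114, 0.00371 and 0.00111.

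REC104 read 4.95, 4.73 and 5.55 in the reference, 7.08, 7.41 and 7.90 at day 7, 7.82, 8.60 and 8.18 at day 15, and 7.50, 8.70 and 8.79 at day 19. The differences of REC104 were 2.38, 3.12 and 3.25 ± 0.377 (adjusted p = 0.000842, 0.000138 and 0.000108). Its partner REC102 was also higher in every bottle array, but with a wider spread. REC102 read 4.80, 5.04 and 5.13 in the reference, 5.88, 7.58 and 7.96 at day 7, 7.45, 8.60 and 7.74 at day 15, and 6.79, 9.18 and 8.62 at day 19. Its differences were 2.15, 2.94 and 3.21 ± 0.627 (adjusted p = 0.0203, 0.00347 and 0.00239). The day 7 call of REC102 was lost without reference replicate 1 or 2 or day 7 replicate 2 or 3 (adjusted p 0.0556 to 0.0782).

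SPO22, also called ZIP4, belongs to the proteins that start synapsis. It read 8.11, 7.49 and 8.32 in the reference, 7.63, 6.68 and 7.10 at day 7, 6.11, 6.73 and 7.46 at day 15, and 8.45, 7.64 and 7.04 at day 19. The day 15 arrays lay below the reference and the day 19 arrays overlapped it. The difference was -1.21 ± 0.428 at day 15 (adjusted p = 0.0382) and -0.26 at day 19 (adjusted p = 0.646). Leaving out reference replicate 1 or 3, day 15 replicate 1 or 2, or day 7 replicate 3 ended the day 15 call of SPO22 (adjusted p up to 0.128).

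Of the early class HOP2, MEK1, MND1, MSH4, REC104 and REC8 were called at all 3 times, whichever single array was left out. HOP2 encodes the partner of Mnd1, MSH4 a crossover factor and REC8 the meiotic cohesin. REC114 and HOP1, for a partner of Spo11 and an axis protein, were also called at each time. Their day 7 calls were lost without any 1 reference array, that of REC114 also without any 1 day 7 array, and that of HOP1 without day 7 replicate 2 or 3 or day 19 replicate 2. After quantile normalization HOP1 was called at no time (0.02, 0.35 and 0.32, adjusted p = 0.968, 0.468 and 0.522). RED1, ZIP1 and SPO16, genes of the chromosome axis and of synapsis, were called at no time in the full fit. SPO16 was called higher at day 19 without day 19 replicate 1 (2.12, adjusted p = 0.00385), beside 23.9% of all genes. MER1, a splicing factor, was called at day 7 and day 19, and DMC1, the meiotic recombinase, at day 19 alone. The MER1 calls were lost without reference replicate 2, that of day 7 also without reference replicate 1 or day 7 replicate 1, and the DMC1 call without reference replicate 1 or 2 or day 19 replicate 2. All of these were lost after quantile normalization as well (MER1 0.24 and 0.04, DMC1 1.90, adjusted p 0.0813 to 0.934).

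Of the 16 middle genes 6 were called higher at day 7, 8 at day 15 and 9 at day 19, with 0 lower. Their median difference was 0.61, 1.14 and 1.09. The genes with the largest changes were SPO19, for a surface protein of the prospore membrane, SPO20, for the SNARE protein that fuses vesicles into that membrane, AMA1, for the meiotic activator of the anaphase-promoting complex, the kinase gene SPS1, and SPO1, for a phospholipase-like protein needed in meiosis.

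SPO19 read 4.85, 4.55 and 5.11 in the reference, 8.24, 7.71 and 7.84 at day 7, 7.63, 8.42 and 8.71 at day 15, and 8.20, 9.02 and 9.53 at day 19. The lowest bottle array was well above the highest reference array. The differences were 3.10, 3.42 and 4.08 ± 0.361 (adjusted p = 0.000128, 6.16e-05 and 2.24e-05).

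SPO20 read 5.11, 4.33 and 5.39 in the reference, 7.42, 7.76 and 8.27 at day 7, 7.42, 9.27 and 9.10 at day 15, and 8.54, 8.88 and 8.70 at day 19. All day 19 arrays of SPO20 were above all day 7 arrays. Its differences from the reference were 2.88, 3.66 and 3.76 ± 0.452 (adjusted p = 0.000828, 0.000164 and 0.000141).

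AMA1 read 5.64, 5.47 and 5.71 in the reference, 7.57, 7.15 and 7.59 at day 7, 7.22, 9.18 and 9.50 at day 15, and 8.37, 9.91 and 9.66 at day 19. No bottle array overlapped the reference, and the differences were 1.83, 3.03 and 3.70 ± 0.538 (adjusted p = 0.0212, 0.00131 and 0.000425). The day 7 call of AMA1 was lost without any 1 reference array or without day 7 replicate 1 or 3 (adjusted p 0.0517 to 0.0664).

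SPS1, whose kinase helps close the prospore membrane, read 6.25, 6.07 and 7.20 in the reference. It read 6.65, 7.39 and 7.27 at day 7, 7.78, 9.26 and 8.34 at day 15, and 7.86, 10.60 and 11.40 at day 19. At day 7 SPS1 overlapped the reference, with a difference of 0.60 ± 0.742 (adjusted p = 0.546). The difference was 1.96 at day 15, just outside the threshold (adjusted p = 0.0502), and 3.45 at day 19 (adjusted p = 0.00396).

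SPO1 read 5.63, 5.72 and 6.76 in the reference, 6.32, 7.22 and 8.12 at day 7, 7.01, 9.32 and 9.25 at day 15, and 7.80, 8.48 and 7.29 at day 19. Day 7 overlapped the reference. The differences of SPO1 were 1.18 (adjusted p = 0.164), 2.49 (adjusted p = 0.00865) and 1.82 ± 0.637 (adjusted p = 0.0379), and the day 19 call was lost without reference replicate 1 or 2 or day 19 replicate 1 or 2. SPO73, SPO75 and SPS22 were called higher at all 3 times as well, and SPO75 lost its day 19 call without reference replicate 2. After quantile normalization SPO75 and SPS22 lost all their calls (SPS22 0.56, 0.35 and 0.88, adjusted p 0.0673 to 0.436). SPS4 was called at day 15 alone, and not without reference replicate 1 or 2, day 15 replicate 2 or 3, or after quantile normalization (0.64, adjusted p = 0.182). On that scale SPS4 was called lower at day 7 (-1.17, adjusted p = 0.0311) and day 19 (-1.28, adjusted p = 0.0177). The genes of the outer plaque of the spindle pole, from which the membrane grows, gave different calls in the full fit. MPC54 is not one of the genes chosen but rose, as given below. SPO21 was called at no time in that fit, and SPO74 was above background on 0 of 12 arrays. Without day 19 replicate 1 SPO21 was called higher at day 19 (0.70, adjusted p = 0.0295), beside 23.9% of all genes. SMK1, SSP1 and SSP2, for the sporulation MAP kinase, the leading edge coat and a spore wall protein, were also called at no time in the full fit. SSP2 was called higher at day 19 without day 19 replicate 1 (1.29, adjusted p = 0.0426). After quantile normalization SMK1 was called lower at day 7 (-0.74, adjusted p = 0.0299) and day 19 (-0.96, adjusted p = 0.00813).

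Of the 8 late genes 4 were called higher at day 7, 5 at day 15 and 5 at day 19, with 0 lower. Their median difference was 1.47, 1.77 and 1.39. SPS100, for a spore wall protein, reached the largest difference of the 56 genes. It read 6.75, 6.42 and 7.25 in the reference, 11.83, 7.77 and 8.25 at day 7, 8.23, 9.91 and 9.78 at day 15, and 14.12, 11.49 and 11.51 at day 19. The array that stood apart was the highest of its day at day 7 and at day 19. The difference of SPS100 was 5.57 ± 0.994 at day 19 (adjusted p = 0.00143), and those of 2.48 at day 7 (adjusted p = 0.0703) and 2.50 at day 15 (adjusted p = 0.0599) did not pass. Without replicate 1 of the day the SPS100 difference was 1.20 at day 7 (adjusted p = 0.246) and 4.69 at day 19 (adjusted p = 0.00357).

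OSW1, an outer spore wall gene, was highest at day 15. It read 4.29, 4.83 and 4.64 in the reference, 5.98, 7.35 and 8.36 at day 7, 8.36, 10.21 and 10.14 at day 15, and 6.61, 8.64 and 8.51 at day 19. The differences were 2.64, 4.98 and 3.33 ± 0.69 (adjusted p = 0.0123, 0.00034 and 0.00328). Without day 7 replicate 3 the day 7 difference of OSW1 was 2.08 (adjusted p = 0.0509).

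SGA1, for the glucoamylase that breaks down glycogen in sporulating cells, read 6.00, 5.95 and 6.12 in the reference. It read 8.71, 8.26 and 8.41 at day 7, 8.01, 9.93 and 8.93 at day 15, and 9.27, 9.97 and 9.42 at day 19. SGA1 was higher on all day 19 arrays than on all day 7 arrays. The differences from the reference were 2.43, 2.93 and 3.53 ± 0.392 (adjusted p = 0.000955, 0.000277 and 8.48e-05).

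DIT1 and DIT2 make the dityrosine of the outermost wall layer and lie side by side in the R64 assembly. DIT1 read 6.44, 6.23 and 6.83 in the reference, 7.69, 8.44 and 8.59 at day 7, 8.40, 8.74 and 8.88 at day 15, and 7.73, 8.51 and 8.46 at day 19, and its differences were 1.74, 2.17 and 1.73 ± 0.3 (adjusted p = 0.00136, 0.000339 and 0.00121). DIT2 was above background on 0 of 3 reference arrays, at 4.61, 4.65 and 4.76. It read 4.71, 5.85 and 6.72 at day 7, 5.50, 6.24 and 6.38 at day 15, and 5.60, 5.63 and 5.96 at day 19. DIT2 was at least 2.39-fold higher at day 15 (adjusted p = 0.0200) and did not pass at day 7 (adjusted p = 0.0600) or day 19 (adjusted p = 0.0595). The DIT2 call was lost without reference replicate 1 or 2 or day 15 replicate 2 or 3 (adjusted p 0.0563 to 0.0771). OSW2, another outer wall gene, was called higher at each time, at day 15 not without reference replicate 1 or 2, and at no time after quantile normalization (0.50, 0.13 and 0.21, adjusted p 0.138 to 0.706). CDA1 and CDA2, which make the chitosan layer, were called at no time.

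SPO14 and SPO12 work in dividing cells as well. SPO14, for phospholipase D, read 9.80, 9.50 and 9.84 in the reference, 10.80, 10.03 and 10.76 at day 7, 9.92, 10.00 and 9.99 at day 15, and 10.75, 10.31 and 10.16 at day 19. It was called higher at day 7 (0.82 ± 0.245, adjusted p = 0.0226) and day 19 (0.70, adjusted p = 0.0385), and its difference at day 15 was 0.26 (adjusted p = 0.402). The day 7 call of SPO14 was lost without reference replicate 1 or 2 or day 7 replicate 1 or 3. Its day 19 call was lost without any 1 reference array, day 15 replicate 3, or day 19 replicate 1 or 2. SPO12, a regulator of mitotic exit, was called at no time.

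Several genes were hardly measured. SPO74 exceeded background on 0 of 12 arrays and SPO77 on 1. HOP2, MEK1, REC114, MND1, MER1, MEI5, SPS2, DIT2 and CDA2 exceeded it on 0 of the 3 reference arrays. Of these, MEI5, a strand exchange factor, was above background on 0 day 7 arrays and on 2 arrays each at day 15 and day 19.

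**Figure D2:**
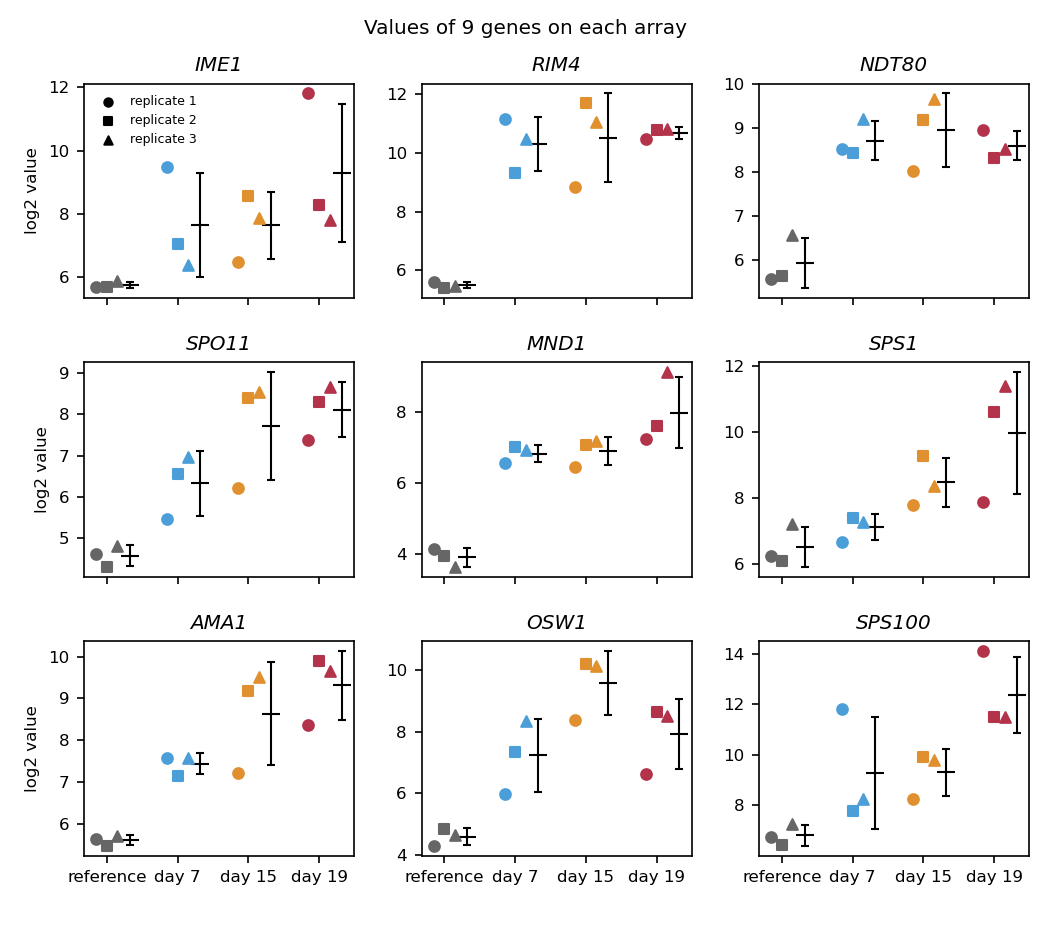
Log2 value (vertical axes, which differ between panels) of 9 genes on every array by group, with marker shapes for the replicate number and bars for the mean ± SD of 3 arrays. SPS1 climbs from 6.07 to 7.20 in the reference to 10.60 and 11.40 on the highest day 19 arrays, and replicate 1 is the highest day 19 array for IME1 (11.80) and SPS100 (14.12) but the lowest for SPO11 (7.38) and SPS1 (7.86).

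Set side by side, the classes were ordered late, early, middle by their median difference at day 7 (1.47, 1.07 and 0.61) and at day 15 (1.77, 1.56 and 1.14), and early, late, middle at day 19 (1.92, 1.39 and 1.09). The regulators lay at 0.74, 0.93 and 0.75. At day 7 the calls higher were 4 of 9 regulators, 11 of 21 early, 6 of 16 middle and 4 of 8 late genes. The share of all genes called higher was 19.7%. After quantile normalization 4, 6, 3 and 2 of these calls stood, beside 16.2% of all genes called higher. On the deposited values part of each class was called higher at the earliest sampling. After quantile normalization the middle class, with 3 of 16, was near the share of all genes, and the late class rested on 2 genes. The differences between classes were not tested. The spread within a class was far wider than the distance between class medians. At day 19 the early genes ran from -0.26 to 4.08, the middle genes from -0.30 to 4.08 and the late genes from -0.01 to 5.57.

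**Figure D3:**
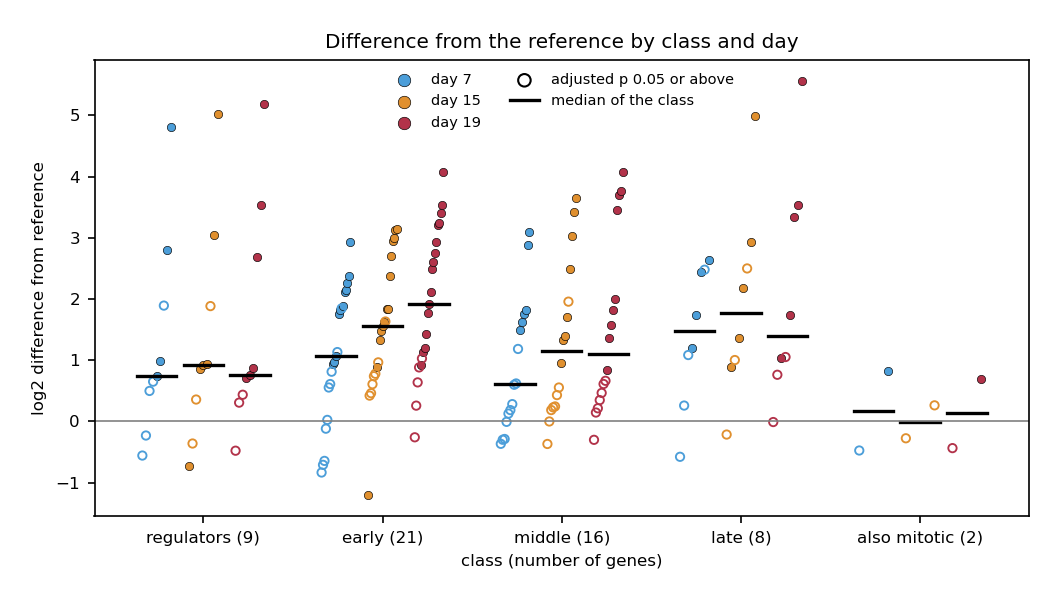
Log2 difference from the reference (vertical axis) of every gene at day 7, day 15 and day 19, by class (horizontal axis, with the number of genes), where filled points were called at adjusted p under 0.05 and black lines are class medians. The early class median climbs from 1.07 to 1.92, while those of the middle and late classes are highest at day 15, at 1.14 and 1.77.

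Within the bottle period the genes leaned upward without a single one passing the test. Between day 7 and day 19, 44 of the 56 differences were positive, with a median of 0.55 against -0.01 for all genes. limma called 0 of the 56 higher and 0 lower, where it called 0.128% of all genes higher and 0.0184% lower. At an unadjusted p under 0.05 there were 15 higher and 1 lower among the 56, beside 12.4% of all genes in either direction, and the smallest adjusted p was 0.197. The day 19 arrays lay wholly above the day 7 arrays for 14 of the 56 (5.87% of all genes) and wholly below for 1, SPO75 (6.11%).

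The lean was most regular among the early genes. Of the 21 early genes 20 had a positive difference between day 7 and day 19, with a median of 0.87, and 9 did not overlap. For the 16 middle genes 13 were positive with a median of 0.56, for the 8 late genes 5 with a median of 0.54, and for the 9 regulators 5 with a median of 0.08. The largest differences were 3.09 ± 0.994 for SPS100 (adjusted p = 0.255) and 2.85 ± 0.742 for SPS1 (adjusted p = 0.197). AMA1 differed by 1.88 ± 0.538 (adjusted p = 0.207) and SPO11 by 1.79 ± 0.595 (adjusted p = 0.270).

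**Figure D4:**
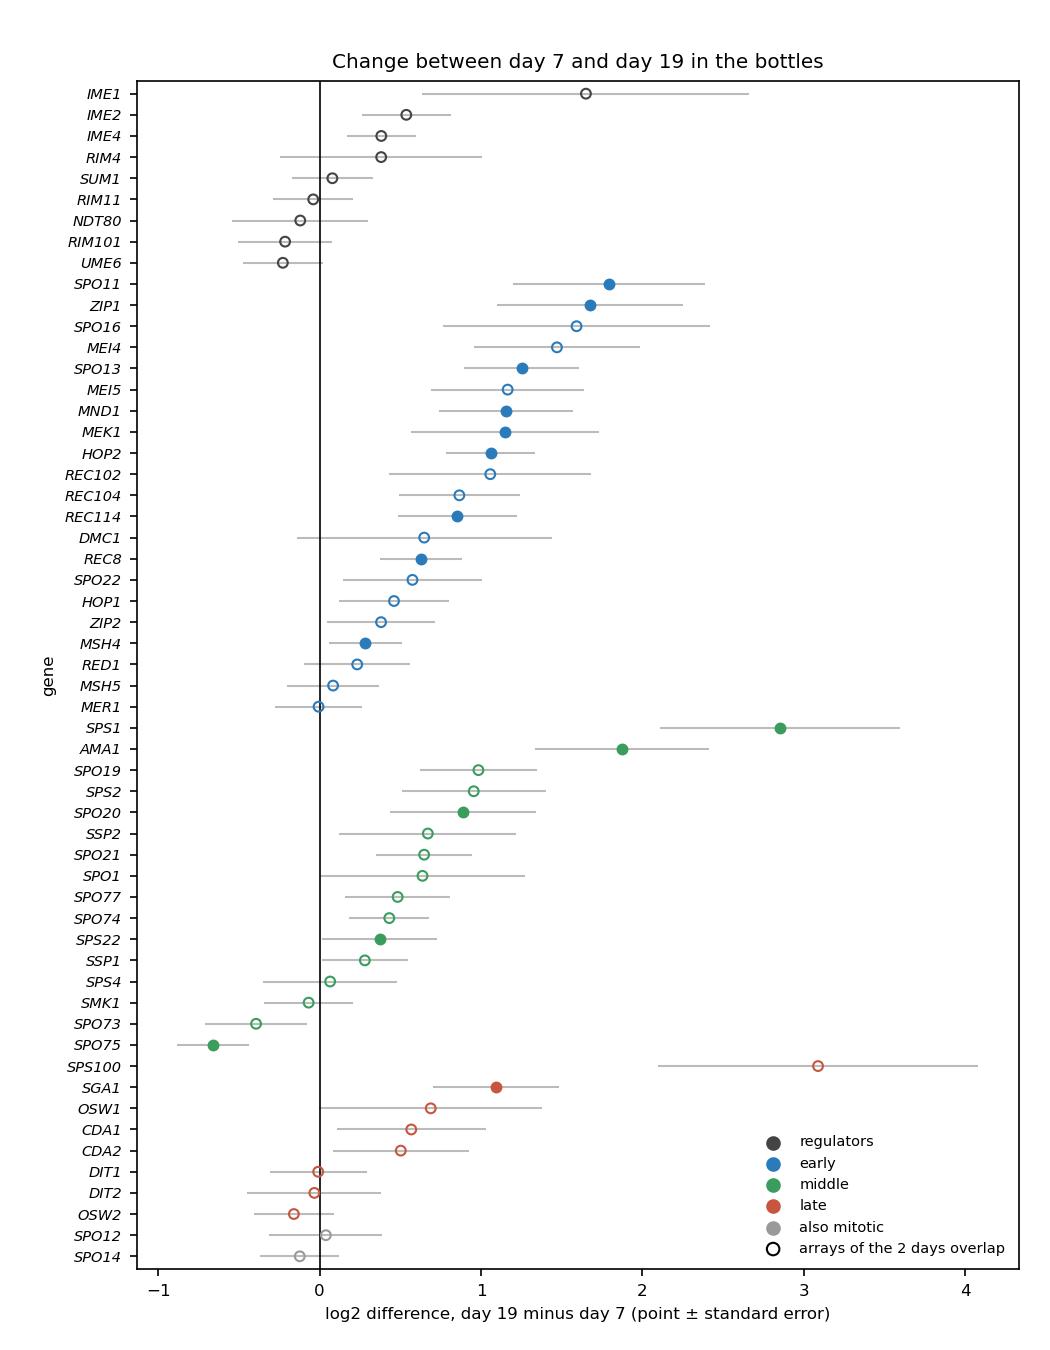
Log2 difference of day 19 from day 7 (horizontal axis, point ± standard error from limma, 3 arrays a day) for each of the 56 genes (rows), coloured by class and filled where the arrays of both days do not overlap. In all, 44 points lie above 0, and 15 of the 56 are filled.

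The steps between neighbouring times were smaller. Between day 7 and day 15, 37 of the 56 differences were positive (median 0.27), 0 were called (0% of all genes), and 6 were higher and 3 lower without overlap (6.17% and 9.1% of all genes). At an unadjusted p under 0.05, 6 were higher and 2 lower, beside 10.5% of all genes. Between day 15 and day 19, 40 were positive (median 0.26), 0 were called (0% of all genes), and 7 were higher and 1 lower without overlap (7.8% and 4.88%). There 7 were higher and 2 lower at an unadjusted p under 0.05, beside 11% of all genes. The F-test over the 3 bottle times called 0 of the 56, with 0.0367% of all genes called, and 12 had an unadjusted p under 0.05, beside 12.6%.

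These counts depended on single arrays. Without day 19 replicate 1, limma called 12 of the 56 higher at day 19 than at day 7, where it then called 4.31% of all genes higher. The 12 were SPO13, SPO16, MEI4, MEI5, REC104, ZIP1 and MND1 of the early class and SPO19, SPO21, SPS1, SPS2 and AMA1 of the middle class. The difference of SPS1 was then 3.90 (adjusted p = 0.00345), that of SPO16 was 2.83 (adjusted p = 0.0074) and that of AMA1 was 2.35 (adjusted p = 0.0283). Between day 15 and day 19, MEI4, SPS1 and SPS2 were called higher without that array, beside 0.606% of all genes. Without day 7 replicate 1, SPS100 was called higher at day 19 than at day 7 (4.36, adjusted p = 0.0353), beside 0.404% of all genes. With both arrays left out, 9 were called higher and SPO75, a middle gene, lower (-0.88, adjusted p = 0.0432), while 5.76% of all genes were then called higher and 4.04% lower. Leaving out these arrays also raised the share of all genes called between day 7 and day 19 above that of the full fit. Members and share did not rise in step, as 12 members came with 4.31% and 9 with 5.76%. Without day 15 replicate 1, SPO11 (2.15, adjusted p = 0.0464) and AMA1 (1.91, adjusted p = 0.0427) were called higher at day 15 than at day 7, beside 0.496% of all genes.

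The arrays that stood apart did so in opposite ways for different members. Day 19 replicate 1 held the highest day 19 values of IME1 (11.80 against 8.28 and 7.81) and SPS100 (14.12 against 11.49 and 11.51). It held the lowest median of the early class, 7.38 against 8.02 and 8.53. SPO16, for a synapsis protein, read 6.21 there against 9.58 and 10.26. Day 7 replicate 1 was alike, with the highest IME1 of its day (9.50) and the lowest early median (6.31 against 6.68 and 6.97). Over all yeast genes the correlation between replicates ran from 0.987 to 0.997 in the reference and from 0.817 to 0.939 at day 19, a description across genes, which are not independent.

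The size of the differences from the reference depended on the scaling of the arrays. After a further quantile normalization of the yeast genes, 16 of the 56 were called higher and 3 lower at day 7, 23 and 3 at day 15, and 25 and 2 at day 19. The lower genes were SPO13, SPS4 and SMK1 at day 7, SUM1, SPO22 and SPO74 at day 15, and SPS4 and SMK1 at day 19. On that scale 16.2% of all genes were called higher and 18.5% lower at day 7, 18.8% and 24.4% at day 15, and 18.6% and 22.7% at day 19. The medians were then 0.41, 0.79 and 0.76. The early class kept medians of 0.37, 0.84 and 1.26 and the late class 0.78, 0.97 and 0.59, and the middle class stood at 0.08, 0.20 and 0.46. Among the 26, 33 and 37 calls at day 7, day 15 and day 19, 14, 20 and 22 stood both after quantile normalization and without each array in turn. DIT1, HOP2, MEK1, MND1, MSH4, NDT80, REC104, REC8, RIM4, SGA1, SPO19, SPO20 and SPO73 did so at all 3 times. The IME1 difference at day 19 was 2.49 after quantile normalization (adjusted p = 0.0935). The day 7 calls of SPO11, REC102, REC114, AMA1 and OSW1, the day 15 call of DIT2, the day 19 call of IME4 and both calls of SPO1 were lost there too. SPO75 reversed its sign at day 15 (-0.026) and day 19 (-0.26), and SPO13 at day 19 (-0.016).

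**Figure D5:**
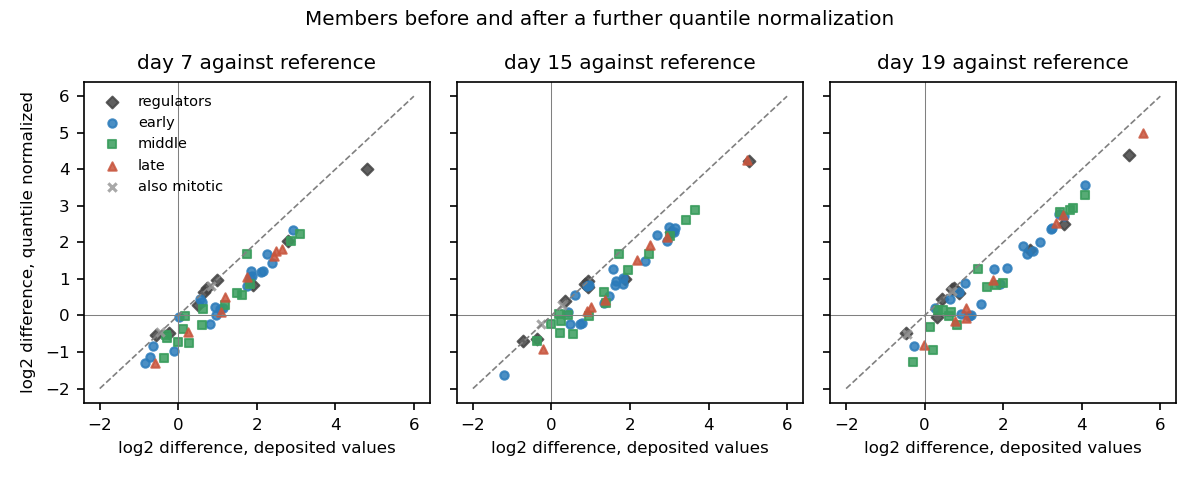
Log2 difference from the reference of each of the 56 genes on the deposited values (horizontal axis) and after a further quantile normalization (vertical axis), at day 7, day 15 and day 19, with the dashed line marking equal values. The points lie mostly below the line, with medians of 0.98, 1.33 and 1.27 on the deposited values and 0.41, 0.79 and 0.76 after normalization.

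Other genes of the pathway were taken from lists. Of 17 genes for entry signals and repressors, 4 were called higher and 3 lower at day 7, 3 and 3 at day 15, and 5 and 3 at day 19. As shares these are 23.5% and 17.6%, 17.6% and 17.6%, and 29.4% and 17.6%, near those of all genes (19.7% and 17.1%, 21.4% and 23.5%, 22.7% and 20.8%). SLZ1, which encodes a subunit of the meiotic RNA methylation complex together with Ime4, rose by 4.46, 5.13 and 4.91 (adjusted p = 0.000419, 0.000155 and 0.000203). RME1, the repressor of IME1 in haploid cells, rose by 1.39, 2.14 and 2.07 (adjusted p = 0.0184, 0.00166 and 0.00219). RIM8, of the pathway that activates Rim101, rose by 2.59, 2.88 and 2.31, while RIM9 of the same pathway fell by 2.05, 3.25 and 2.68. RIM15, the kinase of the starvation response, was called at day 7 (1.14) and day 19 (1.54). The kinase gene MCK1 was lower by log2 differences of -0.78, -0.98 and -1.27, and UME1, of the complex that represses early genes, by -0.87, -0.70 and -0.53.

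Of 10 other prophase genes with a probe set, 7 were called higher at day 7, 6 at day 15 and 9 at day 19, with 0 lower, beside 19.7%, 21.4% and 22.7% of all genes called higher. CSM4, which moves telomeres in prophase, was above background on 0 reference arrays and at least 13.4-fold, 6.81-fold and 10.5-fold higher. MAM1, of the monopolin complex, rose by 3.44, 3.87 and 3.27. PCH2, a checkpoint ATPase, was at least 2.47-fold, 2.35-fold and 3.36-fold higher. Of 20 other spore genes 8, 12 and 13 (40.0%, 60.0% and 65.0%) were called higher and 0 lower, beside the same shares of all genes. SPS19, for a peroxisomal reductase, rose by 3.14, 3.26 and 3.67, and the septin gene SPR28 by 4.07 at day 15 and 3.00 at day 19. Their day 19 arrays were widely spread. On day 19 replicate 1 SPS19 read 12.12, against 8.62 and 8.78 on replicates 2 and 3, and SPR28 read 6.06, against 9.85 and 10.03. MPC54, of the outer plaque, rose by 2.44, 3.29 and 3.31, and SHC1, for the activator of spore chitin synthesis, by 1.53, 2.57 and 3.12. GAS2, a spore wall glucan transferase, was the single gene of the lists called between day 7 and day 19 (1.28 ± 0.202, adjusted p = 0.0410). That call was lost when the fit held only the arrays of day 7 and day 19, and without day 19 replicate 3. In both of these fits 0 of all genes were called higher between these days. GAS2 was named here after its values were seen.

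Genes of mating type and of haploid cells were read beside these, because diploid a/alpha cells are known to repress them. Of 13, 4 were called higher at day 7, 5 at day 15 and 8 at day 19, with 0 lower. From 11 to 13 of the 13 were above background on each reference array and all 13 on each bottle array. Of all genes 96.7% to 97.2% were above it on the reference arrays and 98.3% to 98.8% on the bottle arrays. The count in the bottles is near that share, so it does not set these markers apart from other genes. Their mean log2 value ran from 6.35 to 6.70 in the reference and from 7.19 to 8.41 over the bottle arrays. STE2, the receptor of a cells, and STE3, the receptor of alpha cells, were both above background on all 12 arrays. STE3 rose by 2.08, 2.55 and 2.50, and GPA1, the pheromone G protein, by 1.68, 2.13 and 2.96. The share called higher, 30.8%, 38.5% and 61.5%, stands beside 19.7%, 21.4% and 22.7% of all genes. The differences of 2 of the 13 at day 7 and of 1 at day 15 and at day 19 were negative. The part of these genes in the results was not tested.

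Some of the 56 adjoin each other in the R64 gene order. SPS2, for a wall protein, lies beside SPS1, and both were called higher than the reference at day 19 alone, where SPS2 was at least 1.67-fold higher (adjusted p = 0.0153). The SPS2 call was lost without reference replicate 1 or day 19 replicate 3 and after quantile normalization (adjusted p = 0.0861). SPO22 and HOP1 are neighbours, and at day 15 SPO22 was lower (-1.21) while HOP1 was higher (1.33, adjusted p = 0.00894, and 0.35 with adjusted p = 0.468 after quantile normalization). SPO12 and SPO16 are neighbours too, and neither was called at any time in the full fit.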

How the data were processed

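Total RNA of 12 samples was measured on Affymetrix Yeast Genome 2.0 arrays, with 5 µg per array and biotin labelling, per the labels' protocols. The authors' deposited values are log2 probe set summaries made with RMA, per the submitters' processing notes. Software version and genome build were not given in the sources used here, and the raw image files were not used. RMA adjusts arrays to each other, so a change in total messenger RNA per cell cannot be read from these values. Over which probe sets the arrays were adjusted was not stated. The median of all probe sets was 6.11 to 6.21 on the reference arrays and 6.75 to 7.23 on the bottle arrays. For arrays no read depth applies, and 3 arrays a group limit the precision.

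Of 10928 probe sets 5498 were paired with 1 S. cerevisiae gene by the platform annotation. The one with the highest mean was kept for each of 47 genes with several, which left 5449, and 12 symbols were updated through the RefSeq table of R64. A single linear model of the 4 groups was fitted by lmFit and moderated by eBayes (limma 3.58.1, R 4.3.3), with 8 residual and 3.42 prior degrees of freedom. Adjusted p is Benjamini-Hochberg over all 5449 genes within each of the 6 comparisons and the F-test, and a gene was called under 0.05. "At least" folds replace a group above background on 0 of its arrays by the background or the value itself, whichever was higher.

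The 56 genes, their classes and the other lists were chosen with earlier results of these data known, so no test was made over a list. Per-array values are given for up to 5 genes of a class with the largest difference among those called, for every gene called lower, and for IME1, IME2, NDT80, UME6 and SUM1. Of each other list at most 4 genes per direction were named, by the largest change. Of 62 genes in those 4 lists 60 had a probe set used here, and the others were not analysed here. Alternatives changed the scaling, moderation, call rule, filter, probe set, length trend, arrays in the fit and single arrays. Promoter and protein sequences were not used here. The fit was tested on simulated data.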

Additional observations from a re-analysis of the deposited data

Results flagged for a closer look

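For SPO16 the 3 day 15 arrays lay above the reference mean and the 3 day 7 arrays below it (0.42 and -0.71), a difference of 1.13 between the days (adjusted p = 0.627 in limma). For ZIP1, of the synaptonemal complex, the 3 day 19 arrays lay above and the 3 day 7 arrays below (1.03 and -0.65), a difference of 1.67 (adjusted p = 0.270). Both were picked out by this pattern of signs, neither difference passed the test, and the pattern itself was not tested.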

How the results depend on the processing

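Of 481 values recomputed under alternatives, 439 stayed within the spread or within 1.5 times the count reported, 42 moved and 0 reversed. Quantile normalization gave 16 higher and 3 lower at day 7 and 2 lower at day 19, with medians of 0.41, 0.79 and 0.76. It kept 66 of the 96 calls of single genes and reversed SPO75 at day 15 (-0.026) and day 19 (-0.26) and SPO13 at day 19 (-0.016). Array weights gave 1 lower at day 7 (31.1% of all genes), 48 higher at day 15 (38.8%) and 1 lower at day 19 (28.6%). They gave 17 higher between day 7 and day 15 (10.9%) and 13 between day 7 and day 19 (4.61%). Between day 15 and day 19 they gave 3 higher and 3 lower (9.43% and 5.32%), and the F-test gave 20. At adjusted p under 0.01 there were 15 higher at day 7 (11.6% of all genes) and 0 lower at day 15 (13.1%). With a 2-fold minimum there was 1 lower at day 15 (16%). Removing the trend on coding length left 0 lower at day 15 (23.7% of all genes). With both arrays that stood apart left out there were 2 lower at day 7 (20.5% of all genes). At day 19 there was 1 lower (25%), with a median of 1.49 for the members. Between day 15 and day 19, 5 were then higher (3.17%). Between day 7 and day 19, 9 were higher and 1 lower (5.76% and 4.04%), and the F-test gave 5.

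Leaving out single arrays gave 0 to 1 lower at day 7 (9.82% to 21.6% of all genes), with medians from 0.78 to 1.05. It gave 0 to 2 lower at day 15 (15.2% to 27.3%), and medians from 1.19 to 1.49 at day 19. Between bottle times it gave 0 to 2 higher from day 7 to day 15 (0% to 0.496% of all genes). From day 15 to day 19 it gave 0 to 3 (0% to 0.606%). From day 7 to day 19 it gave 0 to 12 (0% to 4.31%), with medians from 0.36 to 0.61, and the F-test gave 0 to 4. The cause was not tested, except that fewer samples were fitted. Deviations of samples with the same replicate number correlated from -0.277 to 0.414. With 3 arrays a group such values cannot decide whether the numbers pair samples. With the replicate block 26, 33 and 38 members were higher than the reference, beside 19.8%, 21.7% and 22.8% of all genes. There 0, 2 and 0 were lower, beside 16.8%, 23% and 20.2%. Between bottle times 0 were called, and 94 of the 96 calls were kept. Values near background limit what can be seen of 11 dim genes.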
